A study of Homo sapiens with 24 samples.

Results

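The 44 protein-coding genes described here encode the enzymes that assemble an N-glycan on dolichol, transfer it to protein, trim it, branch it and cap it. They were taken by symbol from a fixed list of enzymes, out of a table of 48162 genes. The RNA came from PPC1, a prostate cancer cell line, and was sequenced in 24 libraries, 6 for each of 4 conditions that were harvested on day 5. Parental cells (UT) were not irradiated. Polyploid giant cancer cells (PGCC), which carry several genomes in a single enlarged cell, were made by irradiating PPC1 cells with 8 Gy on day 2 and were caught on a 20 micron PluriSelect filter, which holds back large cells. The other two conditions were parental cells and PGCC given LCL521 at 5 µM for 5 h (UT_LCL and PGCC_LCL), a pro-drug that inhibits the acid ceramidase ASAH1. PGCC differed from parental cells both in irradiation and in capture on a filter, so the effects of these cannot be told apart. All 4 conditions came from a single cell line, and the whole experiment was carried out 6 separate times.

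N-glycosylation begins in the membrane of the endoplasmic reticulum, where sugars are added one after another to the lipid carrier dolichol. The oligosaccharyltransferase moves the finished oligosaccharide onto asparagines of proteins entering the endoplasmic reticulum. Glucosidases and mannosidases then trim it, and Golgi enzymes build branches and cap them with galactose and sialic acid. The early steps are shared by nearly all N-glycoproteins, while the late Golgi steps decide whether a glycan stays rich in mannose or becomes complex, and several of them are carried out by related enzymes from different genes. Sialylated, branched and core-fucosylated N-glycans are widely studied on the surface of cancer cells, including prostate cancer cells.

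Each library held between 14835246 and 19906601 reads counted on genes, and 3 counts, used as a floor that covers counting error only, came to 0.151 to 0.202 CPM, the unit of the levels given here (counts divided by library size after TMM scaling in edgeR). The keratins KRT8 and KRT18 of epithelial cells had at least 833 and 2402 counts in every library, whereas the epithelial markers EPCAM and CDH1 were low, at 0 to 17 and 18 to 113 counts. The secreted prostate antigen KLK3 was at 0 in all libraries, so the labelled origin was not visible in this marker. In a principal component analysis the first component (41.5% of the variance) separated the 12 PGCC libraries from the 12 parental ones, and the second (11.9%) separated the 8 libraries of replicates 4 and 5 from the other replicates in all conditions. Several results are therefore also given without replicates 4 and 5. The 6 mitotic genes examined (MKI67, TOP2A, CCNB1, PLK1, AURKA and CDC20) summed to between 171 and 413 CPM in parental cells and between 976 and 1238.4 CPM in PGCC. The fibroblast list (COL1A1, COL1A2 and DCN, the last with at most 6 counts) summed to between 49.7 and 132 CPM in parental cells and between 78.9 and 205 CPM in PGCC. The leukocyte list (PTPRC, CD3E and CD14) came to between 0.464 and 2.97 CPM in parental cells and between 2.84 and 4.43 CPM in PGCC, and VWF and CDH5 of endothelial cells summed to at most 1.34 CPM in parental cells and 1.01 CPM in PGCC. The part of these lists in the results was not tested.

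The 44 symbols matched 45 rows of the count table, because ALG9 was listed as a pair of overlapping genes. The second ALG9 row (ENSG00000258529), which shares 85296 bases with the first on hg19, had no counts in any library. MAN1C1, MGAT2, MGAT3 and MGAT4A had at most 6 counts in any library and were not tested. The counts of MGAT2, the enzyme that starts the second branch of a complex glycan, are uncertain, because 2666 of its 2710 bases lie under an antisense gene and the strand setting of the counting is not given in the sources used here. Several tested genes also overlap an expressed gene on the opposite strand, among them DPAGT1, ALG1, ALG3, ALG12, ALG5, MGAT4B and B4GALT3, and their counts are uncertain too. The other 40 genes had at least 43 counts in every library, so that none of them passed the filter on low counts through a single condition.

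Promoter stretches are shown for the genes with the largest changes, so that the upstream sequence of the risers MAN1A1 and FUT8 can be read beside that of the fallers MAN2A2 and ST6GAL2. They were taken from RefSeq windows on GRCh38.p14, which were found for 36 of the 44 genes, and were limited to bases before the transcription start that overlap no annotated exon. This left no run of at least 120 bases for MAN2A1. Where a gene had several windows, the longest such run among them was shown. Which start PPC1 cells use was not examined. Letters in capitals mark matches, read on either strand, to a GC box with the letters GGGCGG. They likewise mark any CCAAT box, which is named by its letters. A match to the TATA box, searched as TATAAA, would also stand in capitals. Each sequence reads 5′ to 3′ on the strand of its gene.
MAN1A1, chr6:119349762-119350011, minus strand: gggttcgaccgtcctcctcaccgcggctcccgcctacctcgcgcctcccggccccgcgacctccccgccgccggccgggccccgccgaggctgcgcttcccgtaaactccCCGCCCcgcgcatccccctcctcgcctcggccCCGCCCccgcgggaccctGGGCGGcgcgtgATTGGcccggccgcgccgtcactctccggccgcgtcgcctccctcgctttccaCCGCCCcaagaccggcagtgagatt
FUT8, chr14:65410342-65410591, plus strand: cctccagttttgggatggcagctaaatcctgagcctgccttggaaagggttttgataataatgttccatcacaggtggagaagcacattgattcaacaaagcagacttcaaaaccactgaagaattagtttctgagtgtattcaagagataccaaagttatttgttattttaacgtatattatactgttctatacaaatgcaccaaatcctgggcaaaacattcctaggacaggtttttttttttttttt
MAN2A2, chr15:90902527-90902664, plus strand: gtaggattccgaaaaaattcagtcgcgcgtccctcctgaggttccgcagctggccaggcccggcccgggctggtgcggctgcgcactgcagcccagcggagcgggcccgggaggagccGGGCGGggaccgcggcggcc
ST6GAL2, chr2:106887110-106887359, minus strand: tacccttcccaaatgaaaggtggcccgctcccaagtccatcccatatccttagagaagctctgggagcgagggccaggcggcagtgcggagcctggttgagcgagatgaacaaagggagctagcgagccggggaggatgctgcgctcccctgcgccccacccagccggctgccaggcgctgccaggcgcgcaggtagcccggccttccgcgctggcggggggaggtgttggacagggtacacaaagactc

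The MAN1A1 stretch held 4 GC boxes and 1 CCAAT box, the MAN2A2 stretch held 1 GC box, and the FUT8 and ST6GAL2 stretches held none of these motifs. Over all windows of 300 bases from 250 before to 50 after the start, a GC box was found in 62.5% of the 64 windows of the N-glycan genes, and in 15786 of all 35116 windows. A CCAAT box was found in 35.9% of the windows of these genes and 34.6% of all windows, and a TATA box in 6.25% and 11.5%. The ER stress element (searched as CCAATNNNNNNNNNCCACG on either strand), a site that contains a CCAAT box and through which the unfolded protein response is known to act on chaperone genes, was found in 1 window of these genes, that of ALG12, and in 0.0769% of all windows. Here only this element is in capitals, and a GC box and a further CCAAT box around it stay in lower case. The element ended 116 bases before the start of ALG12, a mannosyltransferase of the endoplasmic reticulum.
ALG12, chr22:49918534-49918592, minus strand: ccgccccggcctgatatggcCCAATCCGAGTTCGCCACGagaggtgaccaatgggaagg
These matches describe the sequences and were not tied to the RNA values by any test. ALG12 also overlaps CRELD2, on the opposite strand, by 292 bases on hg19. Which of these genes the element serves was not tested.

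The first comparison asked how the RNA of PGCC differed from that of the parental cells. Of the 44 genes, 28 passed an adjusted p-value of 0.05 in edgeR's quasi-likelihood test, 6 higher and 22 lower in PGCC. Of the 44, 4 could not be tested. Among all 13812 genes tested 47.4% passed, 23.1% higher and 24.3% lower. The median log2 fold change was -0.22 over the 40 N-glycan genes tested and -0.03 over all genes tested. Parental cells and PGCC did not overlap in 14 of the genes, 3 higher and 11 lower, while 26.8% of all genes tested did not overlap. A change of over 2-fold was called in 5 of them, MAN1A1, MAN2A1, FUT8, MAN2A2 and ST6GAL2, and in 13.8% of all genes tested. Every level is relative to the other RNA of its library, so a fall need not mean less of that RNA in a giant cell. The amount of RNA per cell is not known here. In these bulk samples a change in the number of cells with an RNA and a change in each cell cannot be told apart. With library totals in place of TMM factors the split became 8 higher and 15 lower, while the median of all genes tested moved to 0.07. Without replicates 4 and 5 the split was 6 higher and 18 lower. The share of all genes called in these alternatives is not given here, so the splits cannot be set against it.

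**Figure D1:**
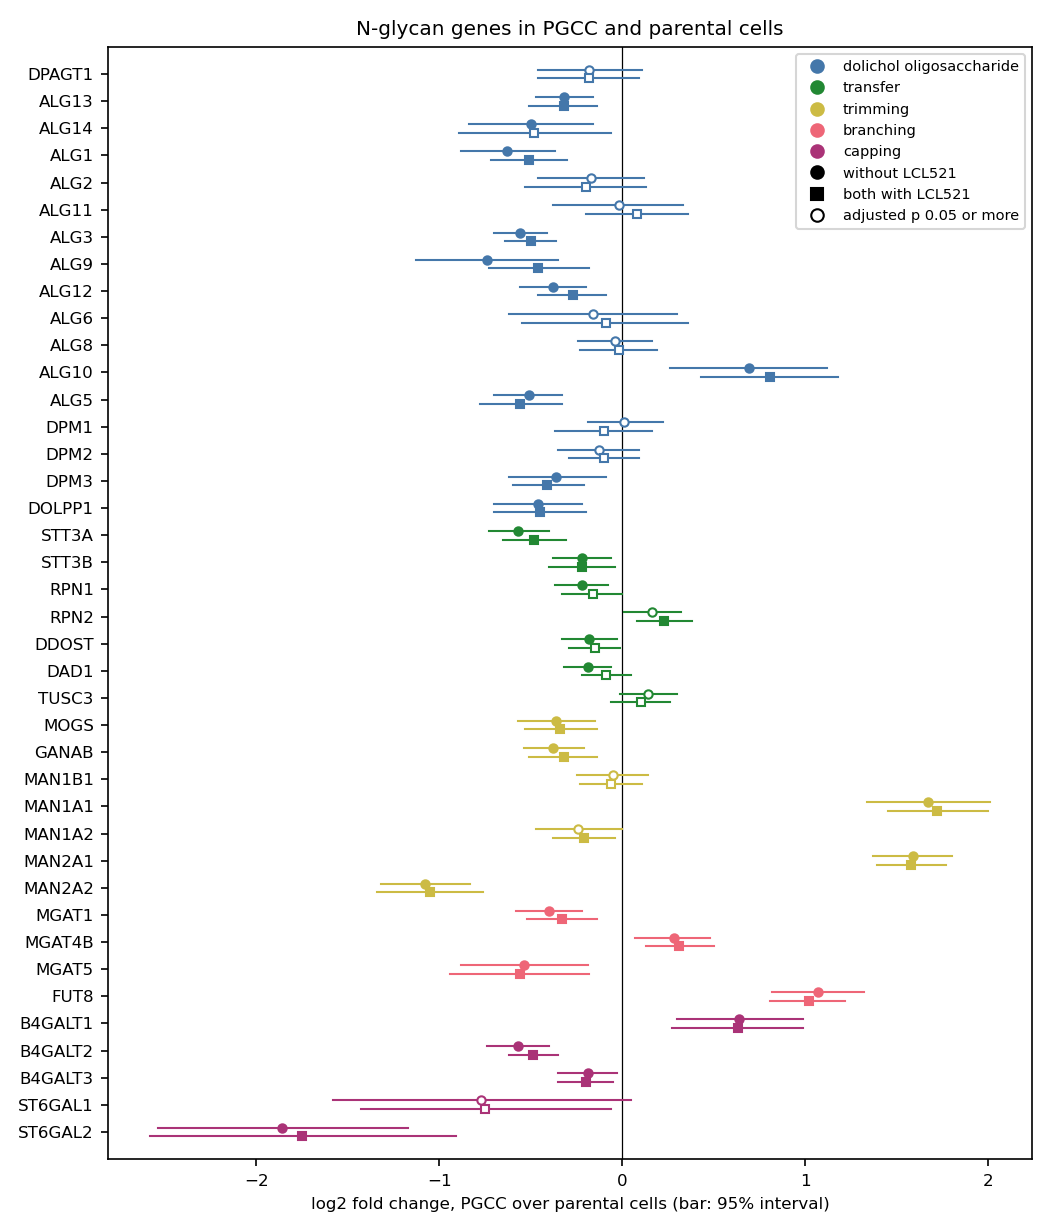
Log2 fold change between PGCC and parental cells for each of the 40 tested genes in pathway order, without LCL521 (circles) and with LCL521 in both (squares), with 95% intervals. Without LCL521 the genes of the dolichol and transfer steps other than ALG10 lie between -0.74 and 0.16, whereas MAN1A1, MAN2A1 and FUT8 lie above 1 and MAN2A2 and ST6GAL2 below -1 in both comparisons.

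The genes that build the oligosaccharide on dolichol were mostly lower in PGCC: 9 of 17 fell, 1 rose and 7 did not pass, with a median log2 fold change of -0.32. That is 52.9% lower and 5.88% higher, against 24.3% lower and 23.1% higher among all genes tested. ALG13 (-0.32) and ALG14 (-0.50) fell. They form the transferase that adds the second GlcNAc. DPAGT1, which adds the first GlcNAc-phosphate, had -0.18 and did not pass (adjusted p = 0.291). ALG1, which adds the first mannose, fell by 0.63 on the log2 scale. Its level was between 36.0 and 55.2 CPM in parental cells and between 24.9 and 34.9 CPM in PGCC, without overlap. ALG2 (-0.17) and ALG11 (-0.02), the mannosyltransferases that follow, did not pass. ALG2 had 0.03 without replicates 4 and 5, and ALG11 shares 4974 bases with UTP14C on the same strand, so that its counts are uncertain.

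The mannosyltransferases that work inside the endoplasmic reticulum, ALG3 (-0.56), ALG9 (-0.74) and ALG12 (-0.38), all fell. ALG3 had between 105 and 122 CPM in parental cells and between 72.3 and 80.0 CPM in PGCC, and did not overlap. Its whole span lies opposite EIF2B5. ALG9 (ENSG00000086848, chr11:111652919-111742305 on hg19) fell most of the dolichol genes. It had a lowest level of 5.07, a median of 7.38 and a highest of 9.41 CPM in parental cells, and 3.51, 4.29 and 5.23 CPM in PGCC. The parental libraries of replicates 4 and 5 were the lowest, at 5.33 and 5.07 CPM, and the last of these overlapped PGCC. The fall was 1.67-fold (standard error 0.18 on the log2 scale, adjusted p = 0.00399 from edgeR's test), in 6 of 6 same-numbered pairs, and the mean paired log2 difference was -0.20 in replicates 4 and 5 but -0.95 in the other replicates.

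The glucosyltransferases ALG6 (-0.16) and ALG8 (-0.04), which add the first glucoses, did not pass, whereas ALG10, which adds the last glucose, rose. The mean paired log2 difference of ALG6 was 0.35 in replicates 4 and 5 but -0.33 in the other replicates. Without replicates 4 and 5 its adjusted p was 0.117, and 0.0412 with the replicate block. ALG10 (ENSG00000139133, chr12:34175216-34182629) had a lowest level of 2.71, a median of 3.12 and a highest of 5.80 CPM in parental cells, and 4.96, 5.62 and 7.57 CPM in PGCC. PGCC replicate 2 was the highest of all, and the groups overlapped. The rise was 1.61-fold (standard error 0.20 on the log2 scale, adjusted p = 0.0115), in 6 of 6 pairs. ALG10 has a close paralog, ALG10B, and lies wholly over an antisense gene, so its counts, between 43 and 129 a library, are uncertain.

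Of the genes that supply dolichol-linked sugars, ALG5, which makes dolichol-phosphate glucose, fell by 0.51 on the log2 scale without overlap. The 3 subunits of dolichol-phosphate mannose synthase gave DPM1, the catalytic subunit, at 0.01, DPM2 at -0.13 and DPM3, which anchors it, at -0.36, and of these DPM3 passed (adjusted p = 0.0268). DOLPP1, a phosphatase that returns dolichol-pyrophosphate to the cycle, fell by 0.46. Without replicates 4 and 5 the value of DPM2 was -0.21 (adjusted p = 0.068, and 0.0287 with the replicate block), that of DOLPP1 -0.61 and that of ALG14 -0.64. The call of ALG14 was lost without replicate 1 or 3 (adjusted p = 0.0644 and 0.0565). That of DPM3 was lost without replicate 1, 3, 5 or 6 (adjusted p = 0.0531, 0.0614, 0.0869 and 0.0646) and without replicates 4 and 5 together (-0.24, adjusted p = 0.0621).

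The oligosaccharyltransferase genes had small changes: 5 of 7 fell, none rose and 2 did not pass, with a median of -0.19. The 71.4% lower stands against 24.3% lower among all genes tested. STT3A and STT3B are its alternative catalytic subunits. STT3A acts with the translocating ribosome and STT3B acts on sites that were missed. STT3A (ENSG00000134910, chr11:125461607-125495110) had a lowest level of 214, a median of 231 and a highest of 267 CPM in parental cells, and 141, 164 and 170 CPM in PGCC. Every PGCC library was below every parental one, and the fall was 1.48-fold (standard error 0.08 on the log2 scale, adjusted p = 4.8e-05). STT3B (ENSG00000163527, chr3:31574130-31679112) had 318, 366 and 408 CPM in parental cells and 291, 306 and 350 CPM in PGCC. Its groups overlapped and its fall was 1.16-fold (standard error 0.08 on the log2 scale, adjusted p = 0.0282). That call was lost without replicate 3, 4 or 5 (adjusted p = 0.0722, 0.0992 and 0.0781), and without replicates 4 and 5 together the value was -0.14.

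Of the shared subunits, RPN1 (-0.22), DDOST (-0.18) and DAD1 (-0.19) fell by at most 1.17-fold, and DAD1 was the most abundant of the 40 tested genes per kilobase, at 297 ± 14.5 CPM per kilobase (SD, n = 6) in parental cells. These calls were near the threshold. DDOST lost its call when any 1 of the 6 replicates was left out (adjusted p between 0.0508 and 0.116), DAD1 without replicate 1, 5 or 6 (0.0708, 0.0582 and 0.0546) and RPN1 without replicate 6 (0.0505), and all 3 lost it with library totals (0.265, 0.168 and 0.102). RPN2 had 0.16 and did not pass (adjusted p = 0.0683). It was higher in PGCC in 6 of 6 pairs and passed with the replicate number as a block (adjusted p = 0.0252), where 56.2% of all genes tested passed and 30 of the N-glycan genes. It also passed without the block with library totals (0.00545), with upper quartile factors (0.0484) and with at least 10 counts in every library (0.0246). TUSC3, a subunit that serves the STT3B enzyme, had 0.14 and did not pass (adjusted p = 0.123), nor with the replicate block (0.0554). It was higher in PGCC in 6 of 6 pairs. It passed with library totals (0.24, adjusted p = 0.0128) and with at least 10 counts in every library (0.18, adjusted p = 0.0493).

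**Figure D2:**
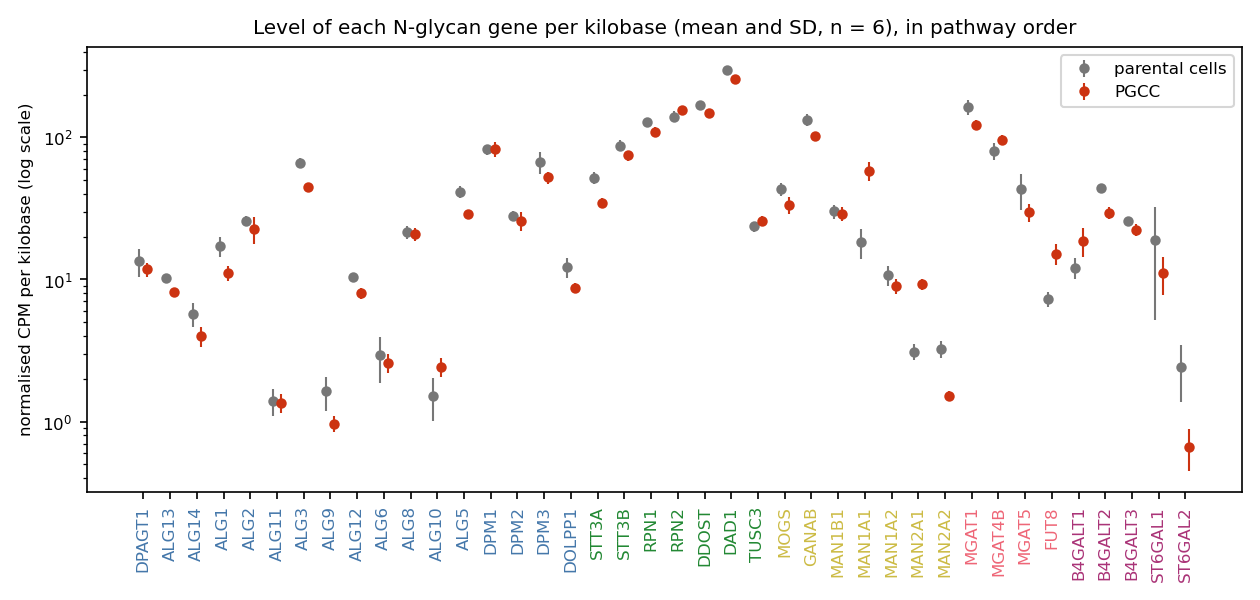
Mean level per kilobase of gene length (CPM per kilobase, log scale) of each tested gene in parental cells and PGCC, with SD over 6 libraries, in pathway order. In parental cells DAD1, DDOST, MGAT1, RPN2 and GANAB are the most abundant, and ALG9, ALG10, ALG11 and ST6GAL2 the least.

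Of the 8 trimming genes 2 rose (25.0%), 3 fell (37.5%), 2 did not pass and MAN1C1 was not tested. Both directions were common among all genes tested, with 23.1% higher and 24.3% lower. The glucosidases that act first, MOGS (-0.36) and GANAB (-0.38), both fell, and the levels of GANAB, between 457 and 596 CPM in parental cells and between 352 and 433 CPM in PGCC, did not overlap. MAN1B1, MAN1A1, MAN1A2 and MAN1C1 encode mannosidases that remove the outer mannoses in the endoplasmic reticulum and the Golgi. MAN1A1 (ENSG00000111885, chr6:119498374-119670926 on hg19) rose most of all 44 genes. It had a lowest level of 60.4, a median of 94.8 and a highest of 126 CPM in parental cells, and 230, 292 and 347 CPM in PGCC. Every PGCC library was above every parental one. The rise was 3.19-fold (standard error 0.16 on the log2 scale, adjusted p = 1.68e-06), and it was 1.88 on the log2 scale without replicates 4 and 5.

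The related mannosidases did not follow MAN1A1. MAN1A2 (ENSG00000198162, chr1:117910071-118071494) had 73.9, 89.8 and 110 CPM in parental cells and 65.8, 76.4 and 88.9 CPM in PGCC, and its log2 fold change of -0.24 (standard error 0.11) passed only with the replicate block (adjusted p = 0.0911 without it and 0.00992 with it) and in the fit of all 24 libraries (0.0428). MAN1B1, which marks slowly folding glycoproteins for disposal, had 138, 143 and 179 CPM in parental cells and 127, 147 and 164 CPM in PGCC, and its log2 fold change of -0.05 did not pass (adjusted p = 0.663). MAN1C1 had at most 2 counts in any library.

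MAN2A1 and MAN2A2 encode both forms of Golgi α-mannosidase II, which takes off the last mannoses before a glycan can become complex, and they moved in opposite directions. MAN2A1 (ENSG00000112893, chr5:109025067-109205326 on hg19) had a lowest level of 14.6, a median of 17.4 and a highest of 20.3 CPM in parental cells, and 44.7, 51.5 and 59.1 CPM in PGCC. MAN2A2 (ENSG00000196547, chr15:91445448-91465814 on hg19) had 17.4, 19.3 and 24.4 CPM in parental cells and 8.39, 9.90 and 10.3 CPM in PGCC. For each gene all libraries of PGCC lay on one side of all parental ones. MAN2A1 rose 3.00-fold (standard error 0.10 on the log2 scale, adjusted p = 7.23e-08) and MAN2A2 fell 2.11-fold (standard error 0.11 on the log2 scale, adjusted p = 4.72e-06), each in 6 of 6 pairs. With replicates 4 and 5 left out the log2 fold changes were 1.61 and -1.05.

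**Figure D3:**
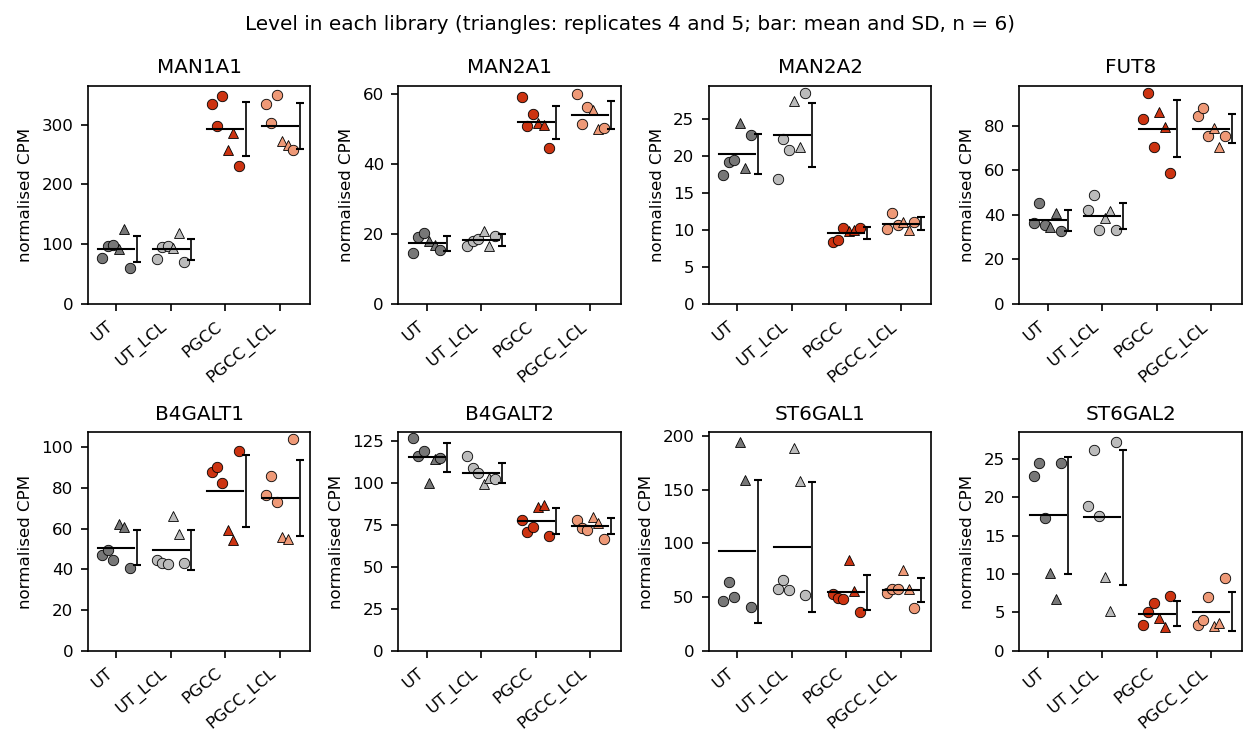
Normalised CPM in each library (points) of 8 trimming, branching and capping genes in the 4 conditions, with mean and SD (n = 6), and triangles for replicates 4 and 5. MAN1A1, MAN2A1 and FUT8 are higher and MAN2A2 and B4GALT2 lower in every PGCC library than in every parental one, whereas ST6GAL1 is highest in the parental libraries of replicates 4 and 5, with and without LCL521.

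All 4 of the tested branching genes passed, 2 higher and 2 lower, and MGAT2, MGAT3 and MGAT4A were not tested. Of the 7 listed this is 28.6% in each direction, against 23.1% higher and 24.3% lower among all genes tested. MGAT1, which opens the way to complex glycans by adding the first branching GlcNAc, fell by 0.40 on the log2 scale (adjusted p = 0.00122), from between 434 and 625 CPM to between 353 and 426 CPM. MGAT4B and MGAT5 start further branches. MGAT4B (ENSG00000161013, chr5:179224597-179233952) had a lowest level of 200.0, a median of 239 and a highest of 285 CPM in parental cells and 256, 293 and 321 CPM in PGCC. Its groups overlapped and it rose 1.21-fold (standard error 0.10 on the log2 scale, adjusted p = 0.0292). That call was lost without replicate 2, 3 or 4 (adjusted p = 0.0850, 0.0895 and 0.0509), and 565 of its bases lie opposite SQSTM1.

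MGAT5 (ENSG00000152127, chr2:134877554-135212192) had 250, 317 and 516 CPM in parental cells and 203, 246 and 295 CPM in PGCC. The highest parental levels, 447 and 516 CPM, were those of replicates 4 and 5. It fell 1.45-fold (standard error 0.16 on the log2 scale, adjusted p = 0.0149), in 6 of 6 pairs, with -0.29 on the log2 scale without replicates 4 and 5 (adjusted p = 0.0427). FUT8 (ENSG00000033170, chr14:65877310-66210839 on hg19), the only fucosyltransferase of the list, adds the core fucose. It had a lowest level of 32.6, a median of 35.8 and a highest of 45.3 CPM in parental cells and 58.7, 81.2 and 94.8 CPM in PGCC. All PGCC libraries were above all parental ones, and the rise was 2.10-fold (standard error 0.12 on the log2 scale, adjusted p = 5.55e-06), with 1.05 on the log2 scale without replicates 4 and 5.

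Of the 5 capping genes 1 rose, 3 fell and 1 did not pass. B4GALT1, B4GALT2 and B4GALT3 encode galactosyltransferases that extend the branches. B4GALT1 (ENSG00000086062, chr9:33104080-33167354) had 40.7, 48.1 and 62.0 CPM as lowest, median and highest level in parental cells and 54.3, 85.1 and 98.0 CPM in PGCC. The rise was 1.56-fold (standard error 0.16 on the log2 scale, adjusted p = 0.00457), and it was found in 4 of 6 pairs. In replicates 1, 2, 3 and 6 the PGCC libraries, at 82.5 to 98.0 CPM, lay above their parental libraries, at 40.7 to 49.2 CPM. In replicates 4 and 5 they had 59.3 and 54.3 CPM against 62.0 and 60.6 CPM. The mean paired log2 difference was 0.98 in the first set and -0.11 in the second.

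B4GALT2 (ENSG00000117411, chr1:44444615-44456840) had 99.9, 116 and 127 CPM in parental cells and 68.4, 75.9 and 87.0 CPM in PGCC. The groups did not overlap, and the fall was 1.49-fold (standard error 0.08 on the log2 scale, adjusted p = 5.54e-05). B4GALT3 (ENSG00000158850, chr1:161141100-161147287) had 76.0, 82.5 and 85.1 CPM in parental cells and 61.6, 72.1 and 81.1 CPM in PGCC. Its fall was 1.14-fold (standard error 0.08 on the log2 scale, adjusted p = 0.0485). This call was lost without replicate 1, 3, 4, 5 or 6 (adjusted p between 0.0805 and 0.119) and with RLE factors (0.0630), and the span of B4GALT3 lies wholly opposite that of PPOX.

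ST6GAL1 and ST6GAL2 encode sialyltransferases that end a branch on galactose. ST6GAL2 (ENSG00000144057, chr2:107418056-107503564 on hg19) fell most of all 44 genes. It had a lowest level of 6.75, a median of 20.0 and a highest of 24.5 CPM in parental cells, and 3.12, 4.61 and 7.12 CPM in PGCC. The parental libraries of replicates 4 and 5 were the lowest, at 10.1 and 6.75 CPM, and the last of these overlapped PGCC. The fall was 3.62-fold (standard error 0.32 on the log2 scale, adjusted p = 3.07e-04), in 6 of 6 pairs, and the mean paired log2 difference was -1.17 in replicates 4 and 5 but -2.05 in the other replicates.

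ST6GAL1 (ENSG00000073849, chr3:186648274-186796341), named here after its values were seen, did not pass (log2 fold change -0.77, standard error 0.38, adjusted p = 0.111). Its parental level was 195 and 159 CPM in replicates 4 and 5, against 40.2 to 63.7 CPM in the other replicates. In PGCC it was 84.5 and 55.5 CPM in the same replicates, against 35.9 to 53.0 CPM in the others. The difference between the replicates was thus 3.53-fold in parental cells and 1.51-fold in PGCC, as the ratio of their means. Without replicates 4 and 5 the log2 fold change of ST6GAL1 was -0.09 (adjusted p = 0.598).

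The ratio of related enzymes in the same library does not depend on the scaling of that library. It was formed for 6 pairs from counts per kilobase of gene length and compared by a two-sided exact permutation test over all 924 divisions of 6 against 6 libraries, with p-values adjusted over the 6 pairs. The MAN2A1/MAN2A2 ratio moved most. Its median was 0.983 in parental cells (between 0.757 and 1.17) and 5.92 in PGCC (between 4.91 and 7.89), a 6.34-fold higher geometric mean. The MAN1A1/MAN1A2 ratio had a median of 1.64 in parental cells and 6.53 in PGCC, a 3.81-fold difference. Neither pair overlapped between parental cells and PGCC, and the exact p was 0.00216 for each (adjusted p = 0.00259), the smallest that this design allows. For both pairs this outcome was fixed by the levels of the single genes. MAN2A1 and MAN2A2 lay apart in opposite directions in the same libraries. MAN1A1 lay apart by a larger factor than the whole range of MAN1A2 spans. The p-values of both ratios thus add nothing to the results of the single genes. The pairs were chosen with earlier results of these data known. The MAN1B1/MAN1A2 ratio was 2.92 and 3.08 in the median and its difference did not pass the exact test (log2 difference 0.18, p = 0.310).

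The STT3B/STT3A ratio was between 1.57 and 1.84 in parental cells and between 1.90 and 2.34 in PGCC. The log2 difference of 0.34 was 1.27-fold and did not overlap (exact p = 0.00216, adjusted p = 0.00259). B4GALT1/B4GALT2 was 2.30-fold and B4GALT1/B4GALT3 1.77-fold higher in PGCC, without overlap in either case (exact p = 0.00216 for both). For B4GALT1/B4GALT2 this was again fixed by the ranges of its genes. The B4GALT1 pairs were those that differed most between replicates. The log2 difference of B4GALT1/B4GALT2 was 0.20 in replicates 4 and 5 but 1.70 in the other replicates, and that of B4GALT1/B4GALT3 was 0.10 and 1.18. Every one of the 5 ratios that differed was higher in PGCC in 6 of 6 same-numbered pairs (exact paired p = 0.0312, the smallest that 6 pairs allow). This followed from the lack of overlap, so the paired test could not come out otherwise and adds nothing. A ratio of MGAT4A to MGAT4B was not formed, since MGAT4A had at most 2 counts.

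**Figure D4:**
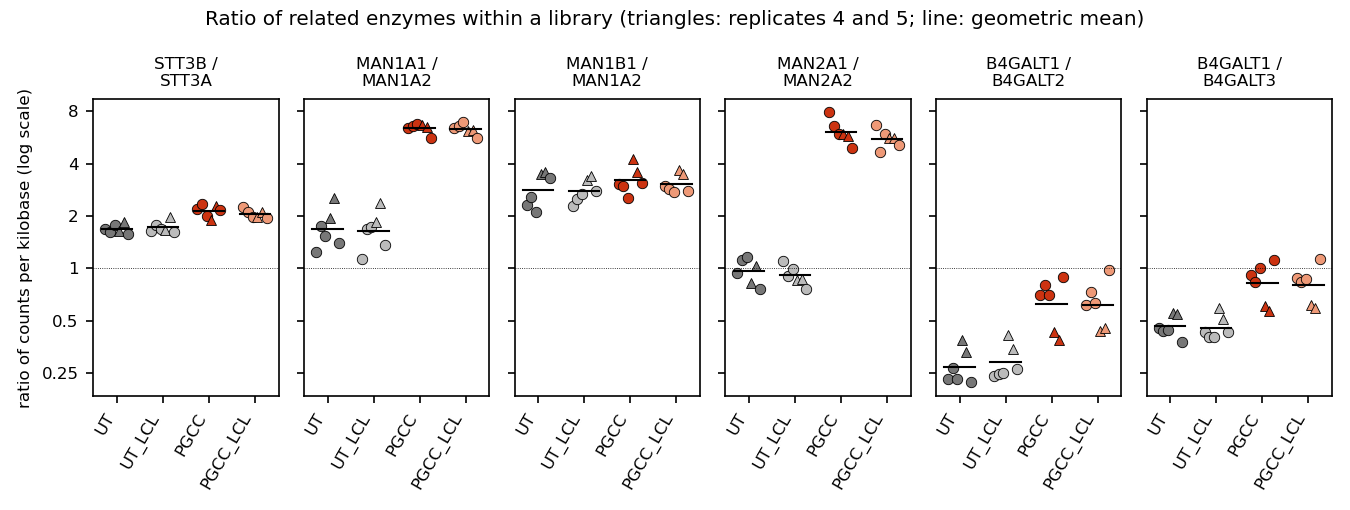
Ratio of counts per kilobase of related enzymes within each library (points, log scale) in the 4 conditions, with the geometric mean as a line and triangles for replicates 4 and 5. MAN2A1/MAN2A2 and MAN1A1/MAN1A2 are higher in every PGCC library than in every parental one, and both B4GALT1 ratios are lowest among the PGCC in replicates 4 and 5.

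The comparison was repeated in libraries that had all received LCL521. It shared no library with the first comparison, but its libraries came from the same 6 repeats of the experiment. Between parental cells with LCL521 and PGCC with LCL521, 26 of the 44 genes passed, 7 higher and 19 lower, where 48.9% of all 13818 genes tested passed (25.0% higher and 23.9% lower). The groups did not overlap in 11 of the genes, 3 higher and 8 lower, against 28.1% of all genes tested. Of the 28 genes called without LCL521, 24 (85.7%) were called in the same direction and all 28 had the same sign. Of all genes called without LCL521 and tested in both comparisons, 90.4% were called in the same direction. The calls of ALG14, RPN1, DDOST and DAD1 were made only without LCL521, and those of RPN2 and MAN1A2 only with it, and a difference between the comparisons was not shown by this. With the replicate block RPN1 also passed with LCL521 (adjusted p = 0.0378).

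The largest changes had like values in both comparisons. With LCL521 the log2 fold change was 1.72 for MAN1A1, 1.58 for MAN2A1, 1.02 for FUT8, -1.05 for MAN2A2 and -1.75 for ST6GAL2. MAN1A1 had between 70.0 and 119 CPM in parental cells with LCL521 and between 257 and 350 CPM in PGCC with LCL521. The replicates 4 and 5 stood apart in the same genes. B4GALT1 had 56.0 and 55.0 CPM in the PGCC libraries with LCL521 of replicates 4 and 5 and between 73.1 and 104 CPM in the others, and ST6GAL1 had 189 and 158 CPM in the parental libraries with LCL521 of replicates 4 and 5 and between 52.1 and 65.8 CPM in the others. ST6GAL1 had a log2 fold change of -0.75 here (adjusted p = 0.0666, and 0.0449 with the replicate block, where 56.3% of all genes tested passed). The MAN2A1/MAN2A2 ratio was 6.12-fold and the MAN1A1/MAN1A2 ratio 3.85-fold higher in PGCC with LCL521 (exact p = 0.00216, adjusted p = 0.00324 for each). For both ratios the p was again fixed by the levels of the single genes. The STT3B/STT3A ratio was 1.19-fold higher, with overlap (exact p = 0.00866, adjusted p = 0.0104).

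The effect of LCL521 itself was compared within each population. No N-glycan gene passed in parental cells, where 0 of 13277 genes tested passed (0.0%), nor in PGCC, where 1 of 14151 did (0.00707%), by edgeR's test. At an unadjusted p under 0.05 none of the N-glycan genes was found in parental cells (0.535% of all genes tested) and 1 in PGCC (1.58%), and DESeq2 gave 0 and 1. These fits leave out the pairing of same-numbered libraries, whose median correlation was 0.652 in parental cells and 0.532 in PGCC. They are therefore a weak guide to small effects of LCL521. With the replicate block, under which 0.866% and 1.64% of all genes passed, still none of the N-glycan genes passed. At an unadjusted p under 0.05 in edgeR's test with the block, 5 of the 40 were found in parental cells and 8 in PGCC. The share of all genes at that mark with the block is not given here. The smallest p-values without the block in parental cells were those of B4GALT2 (log2 fold change -0.12, standard error 0.07), DAD1 (-0.10, standard error 0.06) and MAN2A2 (0.18, standard error 0.14). In PGCC they were those of ALG9 (0.30, standard error 0.12), MAN2A2 (0.19, standard error 0.09) and ALG11 (0.22, standard error 0.12), and all 6 had an adjusted p of 1.00 from edgeR's test.

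**Figure D5:**
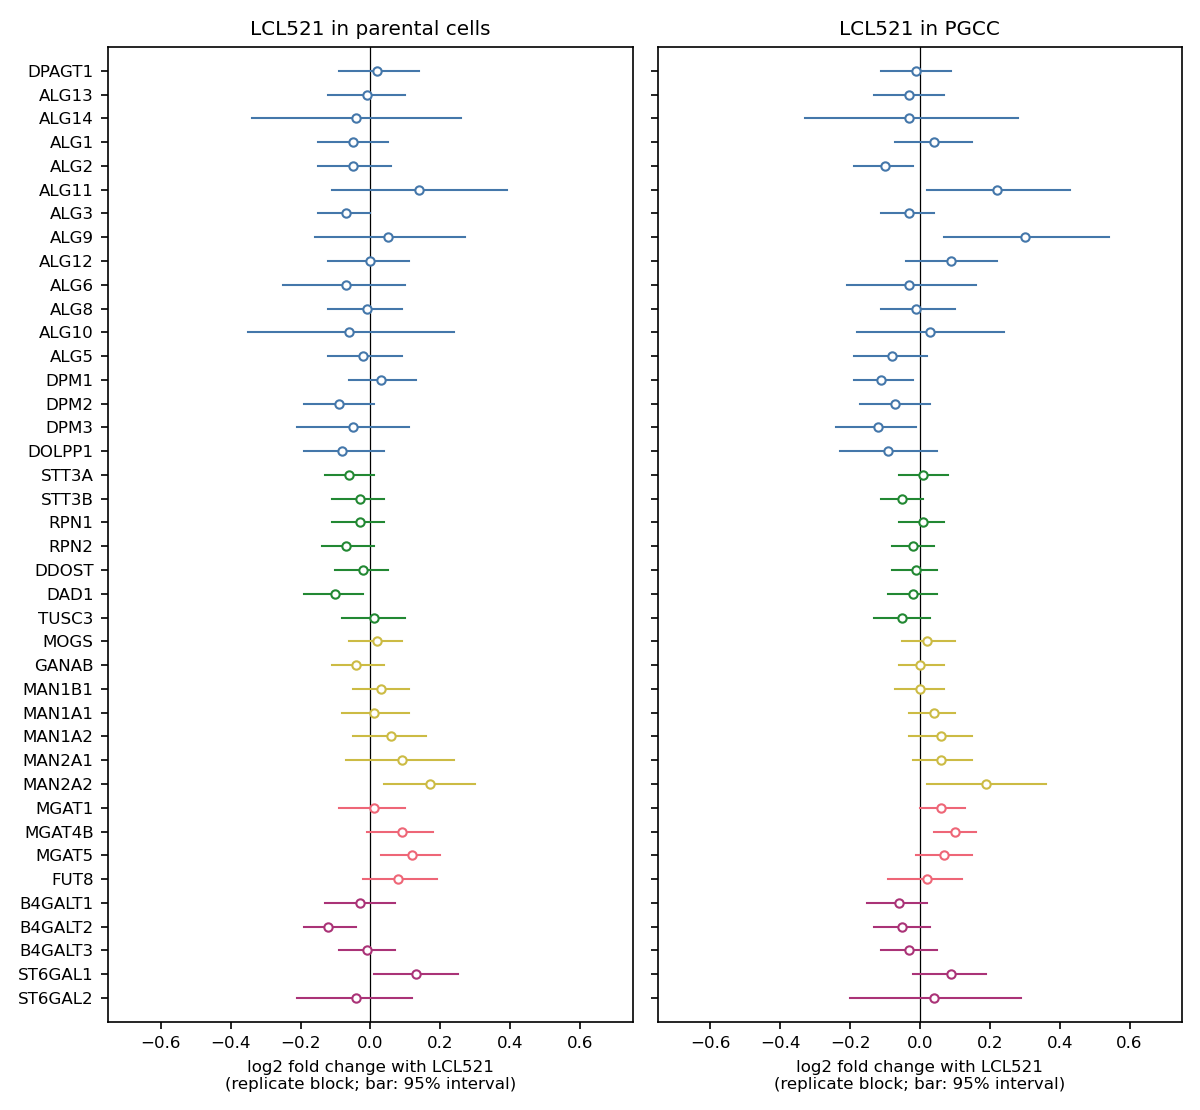
Log2 fold change with LCL521 in parental cells (left) and in PGCC (right) for each tested gene, fitted with replicate number as a block, with 95% intervals. The values lie between -0.12 and 0.17 in parental cells and between -0.12 and 0.30 in PGCC, and no gene passed after adjustment.

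The intervals set limits on what a treatment of 5 h did to these RNAs. In the fit with the replicate block, the half-width of the 95% interval had a median of 0.10 on the log2 scale in parental cells and 0.09 in PGCC, and was widest for ALG14, at 0.30 and 0.31. ALG9 had 0.30 in PGCC with an interval from 0.07 to 0.54, and was higher with LCL521 in 6 of 6 pairs. MAN2A2 had 0.17 in parental cells (interval from 0.04 to 0.30) and 0.19 in PGCC (from 0.02 to 0.36). MGAT4B had the lowest adjusted p with the block in PGCC (0.10, adjusted p = 0.106) and B4GALT2 in parental cells (-0.12, adjusted p = 0.188). The difference between the effects of LCL521 in the populations was tested as an interaction in all 24 libraries. None of the N-glycan genes passed by edgeR's test, with 0.0% of 14555 genes tested passing, none of the N-glycan genes at an unadjusted p under 0.05 (0.412% of all genes tested), and 0 by DESeq2. ALG9 (0.26, standard error 0.22), DAD1 (0.08, standard error 0.08) and DPM1 (-0.14, standard error 0.16) had the smallest p-values for the interaction.

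A further 57 genes of the pathway that supply its sugars, complete its enzymes or act on the folding glycoprotein were compared between parental cells and PGCC. Of these 53 were tested and 20 passed, 8 higher and 12 lower, with a median log2 fold change of 0.00, against the 47.4% of all genes tested given above (23.1% higher and 24.3% lower). In the sugar nucleotide supply 4 of 22 rose and 4 fell. GFPT2, a form of the enzyme that commits glucose carbon to amino sugars, rose most, from between 27.1 and 29.7 CPM in parental cells to between 34.0 and 81.3 CPM in PGCC, 2.39-fold (standard error 0.17 on the log2 scale, adjusted p = 4.5e-05). SLC35A1, which carries CMP-sialic acid into the Golgi, fell most, from between 6.00 and 10.5 CPM to between 2.86 and 5.08 CPM, 2.02-fold (standard error 0.17 on the log2 scale, adjusted p = 3.03e-04).

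Among the genes of the folding cycle and of glycan disposal 1 of 11 rose and 3 fell. MANEA, a mannosidase of the Golgi that cuts glucosylated mannose, fell 1.83-fold from 25.2 ± 3.89 to 13.7 ± 1.14 CPM (SD, n = 6). Of 10 further branching and capping genes 2 rose and none fell. B4GALT4, a related galactosyltransferase, rose 1.88-fold from 12.8 ± 0.72 to 24.0 ± 3.80 CPM, and UAP1 of the sugar nucleotide list had the same log2 fold change, 0.91, at this precision. For the mannose 6-phosphate tag, which sends enzymes to lysosomes, 2 of 3 genes fell. Of 5 other transferase subunits 2 fell and none rose, and of 6 dolichol and flippase genes 1 rose and 1 fell. GMPPB, MGAT4C, ST8SIA2 and ST8SIA4 were not tested because of low counts.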

How the data were processed

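The authors deposited one table of read counts per gene for all 24 libraries, without normalization. Per the labels and the study's methods, paired-end reads from Novogene were aligned with STAR to hg19 and counted with HTSeq; the annotation release and strand setting are not given in the sources used here. The submitters' processing notes also name CASAVA and DESeq2. Groups and replicate numbers were taken from the sample labels.

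Genes with low counts were removed with filterByExpr of edgeR 4.0.16 (R 4.3.3; minimum count 10, minimum total 15). Counts were scaled by TMM. Each comparison was fitted to its own 12 libraries, and the interaction to all 24, with the quasi-likelihood test of edgeR. P-values were adjusted over all genes tested by the Benjamini-Hochberg method (threshold 0.05). Same-numbered libraries deviated together from their group means in all 6 pairs of each comparison (median correlation across genes 0.344 between parental cells and PGCC, at least 0.237), so the numbers were taken to pair the libraries. Between libraries with and without LCL521 the median was 0.652 in parental cells and 0.532 in PGCC. The design description gives 6 repeats of the experiment. The alternatives were DESeq2 1.42.0, limma 3.58.1 (voom), factors by RLE or upper quartile, unscaled library totals, other filters, all 24 libraries in 1 fit, the replicate block, and replicates left out. The procedure was tested on simulated data with 2-fold changes in few genes and no differences between replicates. These settings differ from the data, so smaller changes and the replicate effect were not covered. The genes, lists and pairs were chosen with earlier results of these data known. Genes given in full were those called with over 2-fold change, the largest called rise and fall of each role and both genes of each ratio, and for LCL521 the 3 smallest p-values. Among the other pathway genes the 2 largest rises and falls were named. Values of some marker genes are not reported here.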

Additional observations from a re-analysis of the deposited data

Results flagged for a closer look

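Levels and ratios were examined for a library far from its group in 92 groups of 6, and 2 were found, while chance alone gives about 1 in 20 groups by Dixon's test. ALG10 had 7.57 CPM in PGCC replicate 2, where the other PGCC libraries had between 4.96 and 5.73 CPM. The MAN1A1/MAN1A2 ratio was 5.63 in PGCC replicate 6, where the other PGCC libraries had between 6.44 and 6.81, and it remained above the highest parental ratio of 2.53.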

How the results depend on the processing

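The number of N-glycan genes called between parental cells and PGCC was between 22 and 32 in all alternatives, against 28, and with LCL521 between 22 and 29, against 26. With 1 replicate left out it was between 22 and 26, and between 22 and 25 with LCL521. In the LCL521 comparisons and the interaction it was 0 in all alternatives. With the replicate block 56.2% of all genes tested passed between parental cells and PGCC, and 56.3% with LCL521. For the other alternatives the share of all genes is not given here, so their counts cannot be set against it. With the replicate block 30 genes were called between parental cells and PGCC, because MAN1A2 and RPN2 were gained, and with LCL521 28 were, because RPN1 and ST6GAL1 were gained, and the block changed no other call. The directions that turned were all of genes that did not pass. ALG2 had 0.03 without replicates 4 and 5, with and without the block. With library totals ALG8 had 0.05, ALG11 0.07 and MAN1B1 0.04. ALG11 also had 0.02 with at least 10 counts in every library, 0.01 without replicates 4 and 5, 0.03 without them under the block, and -0.14 to 0.03 with 1 replicate left out, above 0 without replicate 2, 3 or 5. DPM1 had -0.01 with no filter on low counts and -0.05 to 0.09 with 1 replicate left out, at or below 0 without replicate 1, 2 or 6. The causes were not tested. With replicates 4 and 5 left out, the paired differences rest on 4 pairs. Low counts, near the floor of 3, limit what can be said of MAN1C1, MGAT2, MGAT3 and MGAT4A. Why these counts were low was not tested.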
